A study of Mus musculus with 4 samples.

Results

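Late sterol synthesis, the run of enzymes that turns squalene epoxide into cholesterol, was followed through 9 genes in mouse embryos: Lss, Cyp51, Tm7sf2, Msmo1, Nsdhl, Hsd17b7, Ebp, Sc5d and Dhcr7. They were picked by gene symbol, as enzymes of that stretch of the pathway, and are 9 of the 21470 genes in the count table. Of these, 8 were among the 6943 genes that passed the filter on low counts, and Tm7sf2 was not. The embryos were wild type, from B6D2F1 males mated with ICR females. Each was divided into an embryonic side (inner cell mass, ICM) and an extra-embryonic side (trophectoderm, TE), and poly(A) RNA of either side was counted at times labelled E4 and D10, with 5 barcoded libraries in each of the 4 groups. Diapause is the reversible arrest of a blastocyst ahead of implantation. The sources disagree on E4: it is a time before diapause by the series title and the barcode list, in which D10 is day 6, whereas by the protocol both times hold diapause embryos. Whether a library holds 1 embryo or several is not stated, and the 5 libraries of a group were amplified as 1 pool, which means that an effect of the pool cannot be told apart from one of the group.

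Cholesterol is built from acetyl-CoA through mevalonate, squalene and squalene epoxide, and every cell that divides or enlarges its membranes has to make or import it. Lanosterol synthase (Lss) closes the rings of squalene epoxide, after which lanosterol loses its extra methyl groups, its double bonds are moved and reduced, and cholesterol results. Genes of the route are known targets of SREBP2, a membrane-bound transcription factor encoded by Srebf2 that is released when sterols in the endoplasmic reticulum run low. In the embryo, sterols are also needed for the covalent cholesterol tail of Hedgehog proteins, and loss of late enzymes causes malformation syndromes in humans and mice.

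Library totals ran from 144276 to 1010354 counts, with a median of 421314.5. Levels are given as CPM, the count scaled by the TMM-corrected total of tested genes. The most that a count of 0 allows, 3 counts, equals between 3.15 and 21.5 CPM from the deepest library to the shallowest. Because the counts come from 3′ ends and were not set against transcript length, levels of single genes are compared between groups, not between genes. Where levels are summed over a list, the genes with the most counts weigh most. The tissue labels were checked on marker lists. Sox2 was present in all 10 ICM libraries, at means of 277 CPM at E4 and 303 CPM at D10, and was at 0 in 4 of 5 E4 TE libraries and all 5 D10 TE libraries. The summed level of 14 epiblast markers overlapped at E4, at 3122 to 4641 CPM in the ICM and 1059 to 3710 CPM in the TE. Of 13 tested, 12 were higher in the ICM at E4 and 1 lower, beside 15.8% and 15.4% of all genes. Dppa5a went the other way, with E4 means of 834 CPM in the ICM and 2250 CPM in the TE. At D10 the sums were 1618 to 2506 CPM and 591 to 1113 CPM. The summed level of 14 trophectoderm markers was 8254 to 9316 CPM in E4 TE and 8078 to 11060 CPM in D10 TE, against 2421 to 3309 CPM in E4 ICM and 3887 to 5938 CPM in D10 ICM. Pou5f1, a defining ICM gene, was barely counted: it was at 0 in 2 of 5 E4 ICM libraries and 4 of 5 D10 ICM libraries.

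Summed over the genes described here, the D10 ICM group spread widely, with replicate 3 at its low end. D10 ICM replicate 3 had a summed level of the 9 enzymes of 316 CPM, where D10 ICM replicates 1, 2, 4 and 5 had 913, 1266, 1994 and 970.5 CPM. That library also had the most mitochondrial RNA of the D10 ICM group (234800 CPM, against 92600 to 124200 CPM in the other 4), the highest trophectoderm marker sum (5938 CPM, against 3887 to 5094 CPM) and the lowest primitive endoderm marker sum (8941 CPM, against 10560 to 14010 CPM). The part of these in its enzyme levels was not tested. Replicate 4 lay at the other end, and calls that turned without either library are given with and without it. Replicate 3 was singled out by these same levels, so a call gained without it is no support.

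The late enzymes parted between the tissues as time went on. At E4 none of the 8 tested members differed between ICM and TE by the test, whereas at D10 the ICM was higher for 7 of them, by 2.06-fold to 30.4-fold. Within the ICM, 4 members rose from E4 to D10 (Lss, Cyp51, Msmo1 and Sc5d) and 0 fell. Across all genes tested, 13.7% were higher and 9.97% lower in that comparison. In the TE, 5 members fell (Lss, Cyp51, Msmo1, Nsdhl and Sc5d) and 0 rose, beside 9.89% of all genes lower and 11.9% higher. Between ICM and TE at E4, 0 of 8 members passed in either direction, where the ICM was higher for 15.8% of all genes and lower for 15.4%. At D10 the 7 members higher in the ICM were all but Hsd17b7, and 0 were lower, beside 12.9% of all genes higher and 12.6% lower. The change over time itself differed between ICM and TE for 5 members, all in the direction of the ICM, where 3.15% of all genes differed that way and 1.83% the other. In each direction given here as 0, 0 members had an unadjusted p under 0.05 in edgeR, and 0 were called by DESeq2 or limma voom. In bulk RNA of this kind, fewer cells of a type and less RNA per cell cannot be told apart.

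**Figure D1:**
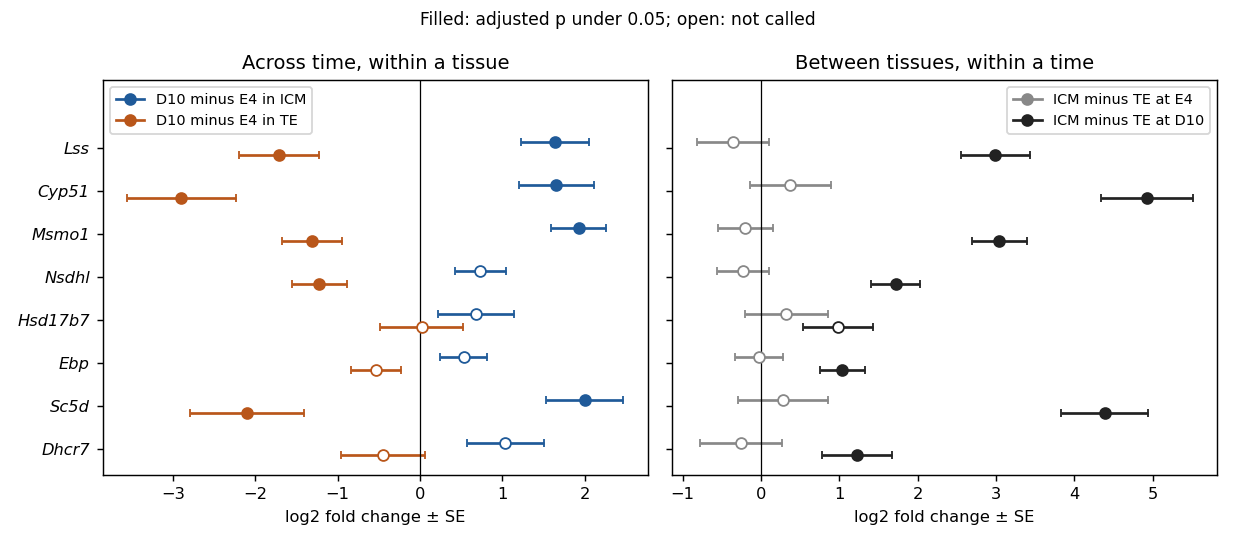
Log2 fold change (x axis, with SE) of the 8 tested late sterol enzymes, across time within ICM and TE (left) and between the tissues at each time (right). Filled points have an adjusted p under 0.05. At E4 all tissue differences lie between -0.36 and 0.38, whereas at D10 all 8 lie above 0.

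As medians over the 8 tested members, the log2 difference was 1.33 across time in the ICM, -1.27 across time in the TE, -0.11 between the tissues at E4 and 2.35 between them at D10. The same medians over all genes tested lay between -0.003 and 0.035. The time and tissue comparisons share libraries (the D10 ICM libraries enter both), so they are not separate evidence, and their values are set side by side for each gene. Leaving out any 1 library of the other 3 groups, or D10 ICM replicate 3, let Tm7sf2 pass the filter, so that 9 members were tested. The count across time in the ICM, 4 with all libraries, was then 5, or 6 without E4 ICM replicate 5. Without D10 ICM replicate 3, 5 members were called across time in the ICM, 9 between the tissues at D10 and 6 for the difference of the changes. Without D10 ICM replicate 4, these counts were 3, 6 and 5 of 8 tested. Replicate 3 was singled out by its low levels of these enzymes, so the higher counts without it add no support. Nor do the calls of Tm7sf2 where it was tested, as it passed the filter through its D10 ICM counts. Sc5d, too, passed the filter only with its D10 ICM counts, so its calls that use D10 ICM add no support to the counts. The fall in the TE was the least steady count: it went from 5 to 3 without E4 TE replicate 2, and to 2 without the E4 litters that still had a zona pellucida, the shell around the early embryo. Those litters are replicates 1 and 2 of either tissue at E4, while all D10 litters had none. Cyp51 and Msmo1 kept their calls in the TE without those litters (log2 -3.06, adjusted p = 0.0081, and -1.34, adjusted p = 0.0434).

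Lss (ENSMUSG00000033105, GRCm38 chr10:76531588-76557138, plus strand) makes lanosterol, the first sterol of the route. Its E4 ICM libraries held 25.4, 41.8, 23.2, 37.2 and 43 CPM for replicates 1 to 5, and its D10 ICM libraries 76.1, 104, 22.2, 159 and 153 CPM. All D10 ICM libraries but replicate 3 were above every E4 ICM library, and replicate 3 was below them all. E4 TE libraries held 46.0, 78.8, 48.7, 21.9 and 28.6 CPM, and D10 TE libraries 27.4, 8.16, 18.1, 3.49 and 8.2 CPM. The TE groups overlapped through D10 TE replicate 1 alone. Lss rose 3.1-fold in the ICM (log2 1.64 ± 0.41 SE, adjusted p = 0.00544) and fell in the TE (log2 -1.71 ± 0.49, adjusted p = 0.0129). The fall did not pass without E4 TE replicate 2 (adjusted p = 0.0517) or without the zona litters (adjusted p = 0.122). At D10 it was 7.93-fold higher in the ICM than in the TE (log2 2.99 ± 0.44, adjusted p = 1.32e-05), and its change over time differed between the tissues by log2 3.35 ± 0.64 (adjusted p = 0.002). The 3′ end of Lss overlaps 4930483K19Rik on the other strand, and because use of strand in counting is not given in the sources used here, reads of the pair cannot be told apart.

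Cyp51 (ENSMUSG00000001467, chr5:4081145-4104746, minus strand) is the sterol 14-demethylase, the cytochrome P450 that removes a ring methyl group from lanosterol. It showed the widest separation of the tissues among the tested members. ICM libraries held 38.04, 60.1, 111, 70.3 and 47.3 CPM at E4 and 223, 204, 27.7, 446 and 125 CPM at D10. As for Lss, D10 ICM replicate 3 was below every E4 ICM library, and the other 4 were above them all. TE libraries held 57.5, 33.2, 99.8, 17.9 and 57.2 CPM at E4 and 11, 12.2, 4.01, 5.24 and 0 CPM at D10, from 17 counts in all at D10. Every D10 TE library was below every E4 TE library, and below every D10 ICM library. The rise in the ICM was log2 1.66 ± 0.45 (adjusted p = 0.00934), and it did not pass without D10 ICM replicate 4 (log2 1.11, adjusted p = 0.0734) or without the zona litters (adjusted p = 0.0786). The fall in the TE was 7.44-fold (log2 -2.90 ± 0.66, adjusted p = 0.00223), and it did not pass with limma voom (log2 -2.81, adjusted p = 0.0662). At D10 the ICM was 30.4-fold above the TE (log2 4.93 ± 0.58, adjusted p = 6.94e-07). The changes over time differed by log2 4.55 ± 0.80 (adjusted p = 0.000914). With all libraries thinned to the smallest total, these 3 log2 values were -3.87, 5.74 and 5.52.

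The 3′ end of Cyp51 overlaps that of Akap9, which lies on the other strand, and reads of these genes cannot be told apart either. Akap9, a scaffold protein of the centrosome and Golgi, was itself higher at D10 in the ICM (log2 1.51 ± 0.31, adjusted p = 0.000901) and in the TE (log2 1.09 ± 0.29, adjusted p = 0.00776). Its direction in the TE was thus opposite to that of Cyp51. Between the tissues at D10 Akap9 did not pass (log2 -0.19 ± 0.26, adjusted p = 0.658).

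Tm7sf2 (ENSMUSG00000024799, chr19:6062821-6068373, minus strand) encodes a sterol 14-reductase, which acts just after Cyp51. Its counts were few: 8 in E4 ICM, 83 in D10 ICM, 12 in E4 TE and 20 in D10 TE, summed over 5 libraries each. The ICM libraries held 6.34, 5.22, 4.63, 6.2 and 0 CPM at E4 and 28.5, 29.7, 5.54, 54.6 and 27.9 CPM at D10. All D10 ICM libraries but replicate 3 were above every E4 ICM library. TE libraries held 0, 16.6, 4.87, 12.0 and 0 CPM at E4 and 11, 4.08, 10.0, 5.24 and 10.9 CPM at D10, and the TE groups overlapped. The ratio of pooled counts, corrected for library size, was 8.09 for D10 over E4 in the ICM (95% exact interval 3.92 to 19.4, for counting error only) and 4.74 for ICM over TE at D10 (2.88 to 8.16). An exact two-sided permutation test over libraries gave p = 0.0238 and p = 0.0317, which became 0.0634 and 0.0634 after Benjamini-Hochberg adjustment over the 4 comparisons of this gene. The smallest p such a test allows is 0.00794. Without D10 ICM replicate 3 the exact permutation test gave an adjusted p of 0.0159 for either. That library was the lowest of the D10 ICM for this gene, and without it the groups compared no longer overlapped. Nothing is read from that p for this reason. Without D10 ICM replicate 4, which was the highest, the log2 ratio of pooled counts went from 3.02 to 2.43 across time in the ICM and from 2.25 to 1.66 between the tissues at D10, with exact permutation adjusted p = 0.0952 and 0.111. On thinning the log2 ratio across time was 1.93. The ratio of D10 over E4 in the TE was 0.988 (0.46 to 2.22), and that of ICM over TE at E4 was 0.579 (0.205 to 1.54), with exact permutation p = 0.357 and 0.929.

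Lbr, the lamin B receptor, carries the same 14-reductase activity and was also under the filter. Its pooled counts were 26 in E4 ICM, 11 in D10 ICM, 24 in E4 TE and 5 in D10 TE. Its mean level was 17.2 ± 5.83 CPM (SD, n = 5) in E4 ICM and 6.49 ± 2.80 CPM in D10 ICM, and the 2 ICM groups did not overlap, with 12.4 to 25.4 CPM against 3.15 to 9.51 CPM. It was 16.4 ± 7.01 CPM in E4 TE and 1.94 ± 1.92 CPM in D10 TE, and the TE groups did not overlap either, with 8.30 to 24.3 CPM against 0 to 4.01 CPM. The values of Lbr thus lay lower at D10 in both tissues. Lbr was not tested for a difference in the main fit, and its values in the fit without the filter are not reported here.

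Msmo1, Nsdhl and Hsd17b7 act in turn to take off the C4 methyl groups, as oxidase, decarboxylating dehydrogenase and 3-ketoreductase. Msmo1 (ENSMUSG00000031604, chr8:64718139-64733792, minus strand) had ICM levels of 76.1, 125, 125, 88.9 and 94.6 CPM at E4 and 319, 506, 99.7, 669 and 334 CPM at D10. The 4 D10 ICM libraries other than replicate 3 were above every E4 ICM library, and replicate 3 lay among them. TE libraries held 115, 124, 170.4, 51.8 and 143 CPM at E4 and 43.8, 44.9, 62.2, 41.9 and 46.4 CPM at D10, and these groups overlapped only through E4 TE replicate 4 and D10 TE replicate 3. Msmo1 had the smallest adjusted p of the members in the ICM (log2 1.93 ± 0.33, adjusted p = 0.000174) and fell in the TE (log2 -1.31 ± 0.36, adjusted p = 0.0107). The fall did not pass when all libraries were thinned to the smallest total (log2 -1.15, adjusted p = 0.0607). At D10 every ICM library was above every TE library, by 8.24-fold in the fit (log2 3.04 ± 0.35, adjusted p = 4.49e-07), and the changes over time differed by log2 3.24 ± 0.49 (adjusted p = 0.000141).

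Nsdhl (ENSMUSG00000031349, chrX:72918557-72958514, plus strand) followed Msmo1 in the order of steps. TE libraries held 92.1, 95.4, 73.0, 41.8 and 78.7 CPM at E4 and 36.5, 26.5, 30.1, 41.9 and 19.1 CPM at D10, with 1 crossing, of E4 TE replicate 4 with D10 TE replicate 4. ICM libraries held 82.4, 39.2, 51.0, 55.8 and 98.9 CPM at E4 and 57.0, 138, 55.4, 155 and 78.9 CPM at D10, and overlapped. Nsdhl fell in the TE (log2 -1.22 ± 0.34, adjusted p = 0.0102), a call lost on thinning (adjusted p = 0.0612) and without the zona litters (adjusted p = 0.0857). Its ICM difference of log2 0.73 ± 0.31 did not pass (adjusted p = 0.0904). It passed with E4 ICM replicate 5 left out (log2 0.94, adjusted p = 0.0441) and with D10 ICM replicate 1 left out (log2 0.88, adjusted p = 0.0455). At D10 every ICM library was above every TE library (log2 1.72 ± 0.32, adjusted p = 0.000192). The difference of the changes was log2 1.95 ± 0.46 (adjusted p = 0.0121), and it did not pass on thinning (adjusted p = 0.0825) or without the zona litters (adjusted p = 0.0958).

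Hsd17b7 (ENSMUSG00000026675, chr1:169949535-169969241, minus strand) was called in none of the 5 comparisons. Its levels were 19.02 to 41.8 CPM in E4 ICM, 5.54 to 101 CPM in D10 ICM, 12.0 to 42.9 CPM in E4 TE and 10.2 to 38.3 CPM in D10 TE, and all 4 groups overlapped. The widest group was D10 ICM, where replicate 4 was highest and replicate 3 lowest. Between the tissues at D10 its log2 difference was 0.98 ± 0.45 (adjusted p = 0.112). Without D10 ICM replicate 3 it passed (log2 1.18, adjusted p = 0.041), and without D10 ICM replicate 4 it was log2 0.22 (adjusted p = 0.79).

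Ebp, Sc5d and Dhcr7 finish the sterol rings: Ebp shifts a ring double bond, Sc5d adds another, and Dhcr7 reduces one of them. Sc5d (ENSMUSG00000032018, chr9:42251595-42264256, minus strand) had ICM levels of 12.7, 31.3, 20.9, 10.3 and 51.6 CPM at E4 and 57.0, 75.8, 22.2, 197 and 111 CPM at D10. Only D10 ICM replicate 3 reached into the E4 range. TE levels were 5.75, 33.2, 17.0, 12.0 and 42.9 CPM at E4 and 1.82, 4.08, 2.01, 8.73 and 5.46 CPM at D10, from 28 and 11 counts in all. The TE groups overlapped, through E4 TE replicate 1, and in the TE most libraries rest on a handful of counts. Sc5d rose 4.0-fold in the ICM (log2 2.0 ± 0.47, adjusted p = 0.00292). Outside D10 ICM, too few libraries reached the level of the filter on low counts for Sc5d to pass. The gene was tested only through its D10 ICM counts, so its calls that use that group add no support. It fell in the TE (log2 -2.10 ± 0.69, adjusted p = 0.0293), but that call was lost with limma voom, without the zona litters, and when any 1 of E4 TE replicates 2 and 5 and D10 TE replicates 1, 2 and 3 was left out (adjusted p 0.0511 to 0.136 over these). At D10 every ICM library was above every TE library, 21.0-fold in the fit (log2 4.39 ± 0.56, adjusted p = 1.82e-06). The difference of the changes was log2 4.10 ± 0.83 (adjusted p = 0.00379).

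Ebp (ENSMUSG00000031168, chrX:8185329-8193512, minus strand) moved less. ICM levels ran from 47.0 to 107 CPM at E4 and from 60.4 to 152 CPM at D10, and TE levels from 61.8 to 104 CPM at E4 and from 36.7 to 67.3 CPM at D10. It did not pass across time in the ICM (log2 0.53 ± 0.29, adjusted p = 0.183) or the TE (log2 -0.54 ± 0.30, adjusted p = 0.214). Between the tissues at D10 it was 2.06-fold higher in the ICM (log2 1.04 ± 0.28, adjusted p = 0.00747), with groups that overlapped.

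Dhcr7 (ENSMUSG00000058454, chr7:143823145-143848410, plus strand), whose loss in humans causes Smith-Lemli-Opitz syndrome, held 11.6 to 28.7 CPM in E4 ICM, 11.1 to 60.9 CPM in D10 ICM, 5.98 to 58.1 CPM in E4 TE and 10.48 to 32.8 CPM in D10 TE. All 4 groups overlapped. Between the tissues at D10 it was higher in the ICM by log2 1.23 ± 0.45 (adjusted p = 0.0435), the least secure of the 7 calls: it was lost with DESeq2 (adjusted p = 0.0549) and without any 1 of 8 libraries, among them D10 ICM replicate 4 (adjusted p = 0.172). Across time it did not pass in the ICM (log2 1.03 ± 0.47, adjusted p = 0.11) or the TE (log2 -0.45 ± 0.50, adjusted p = 0.569). At E4 the tissue difference of the 8 members ran from log2 -0.36 ± 0.46 for Lss to 0.38 ± 0.51 for Cyp51. The SEs were 0.31 to 0.57. Differences well beyond such errors can also go undetected at this depth, as did the log2 1.03 ± 0.47 of Dhcr7 in the ICM. Equal levels of the members at E4 are thus not shown.

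**Figure D2:**
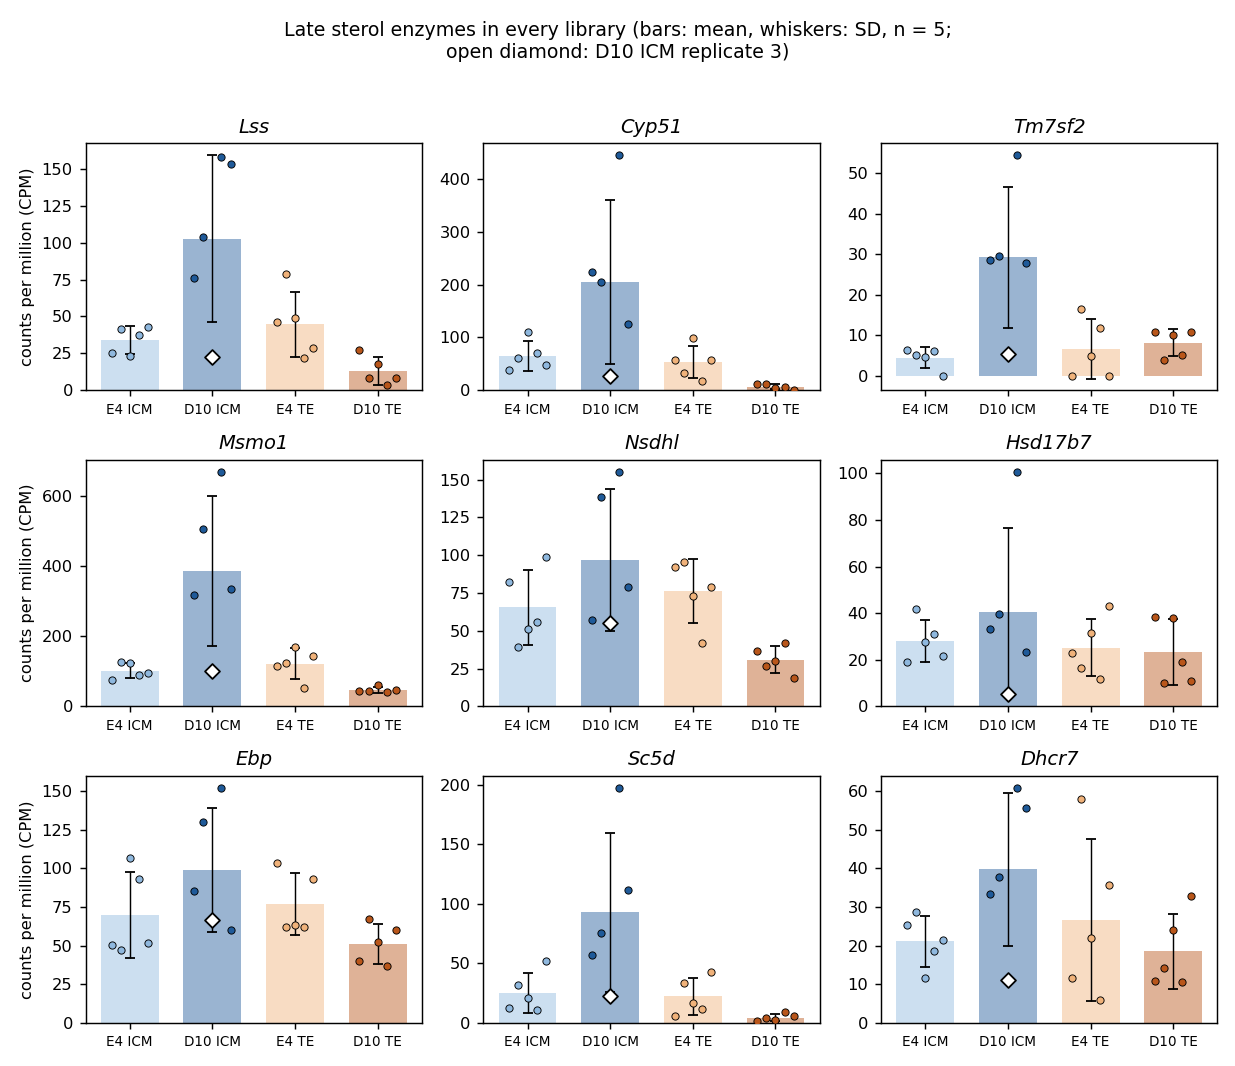
Level in CPM (y axis) of each of the 9 late sterol enzymes in every library, by group (x axis). Bars are means and whiskers SD over 5 libraries. The open diamond marks D10 ICM replicate 3, the lowest D10 ICM library for 8 of 9 genes, and Ebp is the exception.

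The stretch before each start site was read, and 4 are shown: those of Lss, Cyp51 and Sc5d, 3 of the 4 members called in every comparison but that at E4, and of Ebp, which moved least among those called at D10. The sequences come from RefSeq (GRCm38.p6), for which all 9 members had an entry. They run 5′ to 3′ on the gene's strand and end before the first annotated exon. Capitals mark CCAAT and GGGCGG, the boxes known to be bound by NF-Y and Sp1, which work beside SREBP at sterol genes, or their reverse complements ATTGG and CCGCCC. Lss is chr10:76531355-76531587 (plus), Cyp51 is chr5:4104747-4104947 (minus), Sc5d is chr9:42264301-42264550 (minus) and Ebp is chrX:8193513-8193762 (minus).
Lss: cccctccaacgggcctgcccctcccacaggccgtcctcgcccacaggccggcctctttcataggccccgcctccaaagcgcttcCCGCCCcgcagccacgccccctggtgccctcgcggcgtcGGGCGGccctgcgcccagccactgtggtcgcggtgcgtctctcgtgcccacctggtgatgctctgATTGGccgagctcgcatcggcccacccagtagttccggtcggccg
Cyp51: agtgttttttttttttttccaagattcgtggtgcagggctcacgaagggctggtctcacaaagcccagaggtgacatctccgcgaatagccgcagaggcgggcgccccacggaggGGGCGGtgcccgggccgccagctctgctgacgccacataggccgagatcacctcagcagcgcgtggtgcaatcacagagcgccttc
Sc5d: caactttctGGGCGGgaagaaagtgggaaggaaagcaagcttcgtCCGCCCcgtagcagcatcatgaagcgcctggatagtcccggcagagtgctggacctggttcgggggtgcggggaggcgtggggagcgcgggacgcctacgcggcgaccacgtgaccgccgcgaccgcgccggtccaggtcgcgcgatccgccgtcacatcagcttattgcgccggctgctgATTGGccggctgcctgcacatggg
Ebp: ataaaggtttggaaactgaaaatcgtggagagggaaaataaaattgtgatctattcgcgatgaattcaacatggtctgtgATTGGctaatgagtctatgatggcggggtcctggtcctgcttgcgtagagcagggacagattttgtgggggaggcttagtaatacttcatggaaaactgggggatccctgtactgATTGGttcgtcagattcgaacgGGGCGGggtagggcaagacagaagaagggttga

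The Lss, Sc5d and Ebp stretches each hold both kinds of box. The Cyp51 stretch shows its GGGCGG, and its CCAAT lies nearer the start, at bases -29 to -25, in the part not printed. In the 250 bases before the start, on either strand, CCAAT was found in 9 of 9 members, against 37.5% of 27025 genes and 40.7% of the 5457 genes that were both tested and matched. GGGCGG was found in 9 of 9, against 35.4% of all genes and 67.9% of tested genes. Both boxes occurred in 1 window in 9 of 9 members, against 12.5% of all genes and 25.5% of tested genes. For Dhcr7, which has 3 annotated starts, the pair was in the third window and not in the other two. CACGTG, an E-box, was found in 3 members (Hsd17b7, Sc5d and Dhcr7), against 6.86% of all genes and 11% of tested genes. The classical sterol regulatory element was searched as TCACNCCAC: 0 of 9 members held it, as did 1.22% of all genes, and with 1 mismatch allowed 5 of 9 held it, against 23.0%. No 2 of the exact matches overlapped. Hsd17b7 and Ebp hold the pair of boxes as do the members that changed most, and a match is a description of letters, not of binding.

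**Figure D3:**
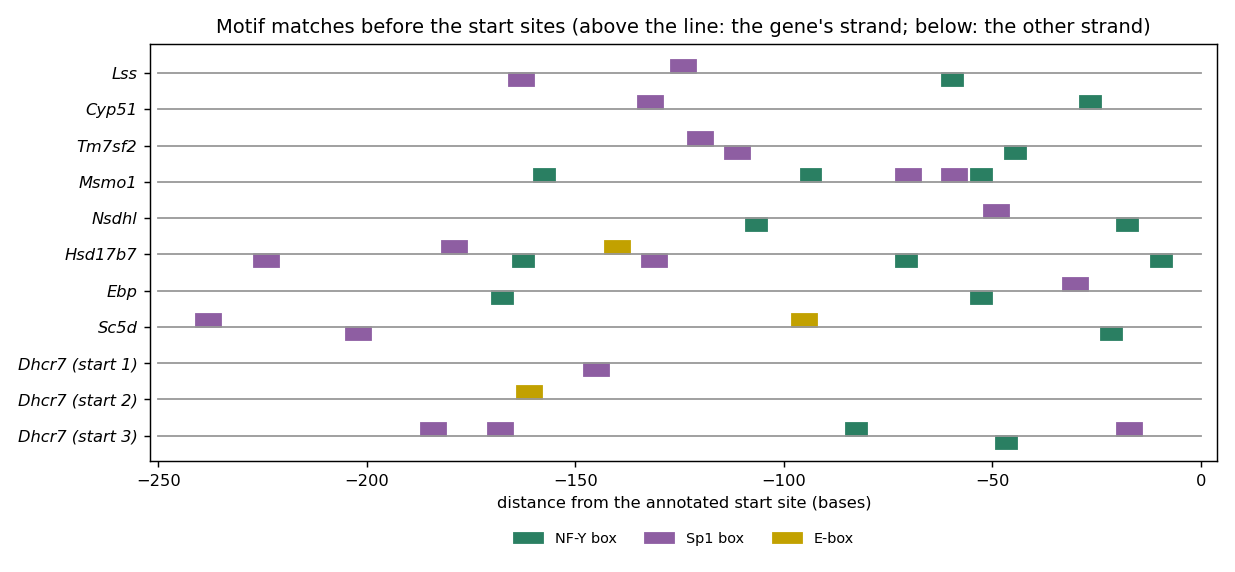
Positions of the motif matches in the 250 bases before the annotated start (x axis, distance in bases) for each member, with Dhcr7 at its 3 starts. Marks above a line lie on the gene's strand and below it on the other. All 9 genes carry at least 1 NF-Y box and 1 Sp1 box, and 3 an E-box.

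The enzymes before lanosterol were counted in the same way. Of 10 genes from acetyl-CoA to squalene epoxide, 8 were tested (Idi1 and Fdps were not). Of these, 4 rose and 0 fell in the ICM, beside 13.7% and 9.97% of all genes. In the TE, 6 fell and 0 rose, beside 9.89% and 11.9%. Between the tissues at E4, 0 passed, beside 15.8% of all genes higher in the ICM and 15.4% lower. At D10 all 8 were higher in the ICM, beside 12.9% of all genes, with a median log2 difference of 2.62. The count across time in the ICM was 2 when any 1 of E4 ICM replicate 4 and D10 ICM replicates 2 and 4 was left out, and 7 without D10 ICM replicate 3. On thinning, 5 of the list were still tested, of which 3 fell in the TE and 4 were higher in the ICM at D10. Sqle, which makes the squalene epoxide that Lss uses, was higher in the D10 ICM by log2 3.27 ± 0.38 (adjusted p = 6.25e-07), Acat2, the thiolase of the first step, by 2.62 ± 0.33 (adjusted p = 1.87e-06), and Hmgcs1, HMG-CoA synthase, by 2.62 ± 0.34 (adjusted p = 2.66e-06). Sqle fell in the TE (log2 -2.79 ± 0.40, adjusted p = 1.37e-05). Its ICM difference of log2 0.81 ± 0.33 did not pass (adjusted p = 0.0743). It passed when D10 ICM replicate 3 (log2 1.02, adjusted p = 0.0163) or E4 TE replicate 3 (0.84, adjusted p = 0.048) was left out, without the filter (0.84, adjusted p = 0.0325) and on thinning (1.08, adjusted p = 0.0381).

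Genes of sterol control, uptake and export formed a list of 19, of which 13 were tested. Across time in the ICM, 6 rose and 0 fell, beside 13.7% and 9.97% of all genes. In the TE, 1 rose and 2 fell, beside 11.9% and 9.89%. At E4, 1 was higher and 6 lower in the ICM than the TE, beside 15.8% and 15.4% of all genes. At D10, 2 were higher and 2 lower, beside 12.9% and 12.6%. The counts in the TE and at D10 are near these shares, and nothing is read from them. The 6 lower at E4 were 2 without the zona litters. Srebf2 was higher in the D10 ICM than the D10 TE by log2 4.44 ± 0.44 (adjusted p = 6.77e-08), at 119 ± 61.1 CPM against 5.07 ± 1.76 CPM (SD, n = 5). Soat1, which esterifies cholesterol for storage, was lower there by 1.51 on the log2 scale (log2 -1.51 ± 0.29, adjusted p = 0.000336). Soat1 was lower in the ICM at E4 as well (log2 -2.17 ± 0.30, adjusted p = 6.72e-06), unlike the late enzymes.

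Across the 20 libraries, the tested genes closest to the mean profile of the members were Hmgcs1 (Pearson r = 0.91), Mvd (0.881), Acat2 (0.875), Fdft1 (0.872), Srebf2 (0.841), Sqle (0.839), Yipf3 (0.837) and Scd2 (0.834). Members, Gm-numbered genes, Rik clone names, pseudogenes and genes without a symbol were left out of this ranking. The profile is the mean of the 8 members' standardised log2 CPM. After group means were removed, so that only libraries of 1 group were set against each other, these r were 0.738, 0.855, 0.686, 0.748, 0.527, 0.664, 0.502 and 0.692. The points share 4 amplification pools and a common depth per library, and r is given as a description. Mvd and Fdft1 are mevalonate diphosphate decarboxylase and squalene synthase, Scd2 is a fatty acid desaturase, and Yipf3 is a Golgi membrane protein. Among the members, Msmo1 was closest to the mean of the other members (r = 0.956, and 0.935 within groups), and Hsd17b7 was farthest over all libraries (0.578) though not within groups (0.758, where Ebp had 0.32).

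Summed over the 9 genes, the D10 ICM library was above the D10 TE library of its own litter in all 5 litters: 913 against 221 CPM, 1266 against 192, 316 against 241, 1994 against 173, and 970.5 against 194. At E4 the ICM was lower in 4 of 5 litters, with 336 to 482 CPM in the ICM and 237 to 531 CPM in the TE. The litter of D10 replicate 3 thus had the narrowest tissue gap of the D10 litters. The 10 earlier enzymes spread alike, with 454 to 606 CPM in E4 ICM, 354.5 to 2245 CPM in D10 ICM, 448 to 716 CPM in E4 TE and 168 to 263 CPM in D10 TE.

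**Figure D4:**
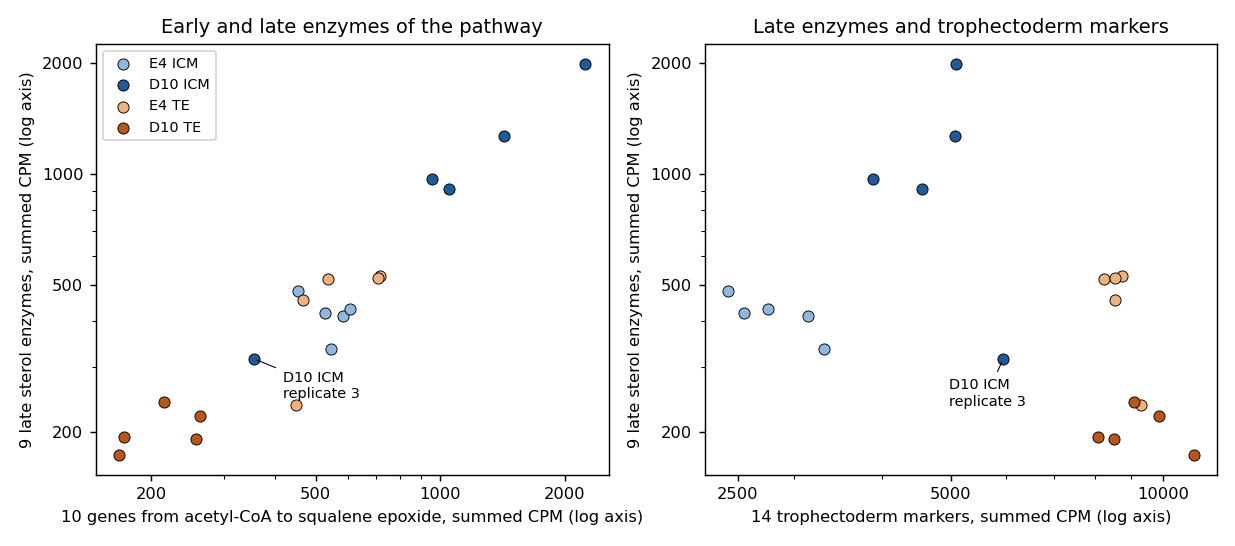
Summed CPM of the 9 late enzymes (y axes, log) in each of 20 libraries against the summed CPM of 10 earlier enzymes (left) and of 14 trophectoderm markers (right), log axes, colours by group. D10 ICM replicate 3 lies at 316 CPM, below the other 4 D10 ICM libraries at 913 to 1994 CPM, and all D10 TE libraries lie at 173 to 241 CPM.

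Marker sums moved with time in the same libraries. In the ICM, the summed level of 15 primitive endoderm markers went from 2041 to 6002 CPM at E4 to 8941 to 14010 CPM at D10, and that of 14 epiblast markers from 3122 to 4641 CPM to 1618 to 2506 CPM. By gene, 8 of 15 primitive endoderm markers were higher and 1 lower, 0 of 13 tested epiblast markers were higher and 8 lower, and 7 of 14 trophectoderm markers were higher and 1 lower. Over all genes tested, 13.7% were higher and 9.97% lower in that comparison. In the TE, the epiblast marker sum went from 1059 to 3710 CPM at E4 to 591 to 1113 CPM at D10, most of it Dppa5a, with means of 2250 and 594 CPM, while Esrrb was at 0 in all 5 E4 TE libraries. Of the epiblast list, 1 of 13 was higher and 1 lower across time in the TE, beside 11.9% and 9.89% of all genes. Nothing is read from these 2 counts. Sums of 10 maternal markers, such as globin and leukocyte genes, were 0 to 145 CPM in any library, and the highest was in D10 ICM replicate 4. The part of these shifts in the enzyme levels was not tested.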

How the data were processed

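Poly(A) RNA of dissected ICM and TE was barcoded at reverse transcription, mixed by group and amplified, per the labels' protocols (BRB-seq, a 3′ method). The authors deposited raw counts per gene and library, and a barcode list with litter and zona columns. Tools named, with no role, are featureCounts 2.0.1, HISAT2 2.2.1, Trim Galore 0.6.7 and UMI-tools, per the submitters' processing notes. For UMI collapsing, strand and annotation, the setting is not given in the sources used here, and counting intervals cover counting error only.

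Members and lists were chosen with earlier results of these data known, and the mevalonate, control and accessory lists support nothing about each other. Genes were tested with edgeR 4.0.16 (R 4.3.3, TMM, filterByExpr with minimum count 10, quasi-likelihood F test) in 1 fit of 4 groups, with Benjamini-Hochberg adjustment over 6943 genes and a threshold of 0.05. SE is the absolute log2 fold change over the root of F. Tm7sf2, under the filter, was compared by pooled counts (95% Clopper-Pearson interval) and an exact permutation test on log2(CPM + 1). Alternatives used DESeq2 1.42.0 and limma 3.58.1, and the test was tried on simulated counts. Named genes were the 9 members, the 3 genes of each list with the smallest adjusted p between the tissues at D10, and the 8 non-members closest in profile, and some of them are not reported here. Other genes, such as Akap9, Lbr and marker genes, were named after their values were seen.

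P-values measure the spread between libraries. The lowest chi-square per degree of freedom between libraries of 1 group was 2.57, so none was counted as a duplicate, and 0 columns were left unused. The barcode list gives same-numbered ICM and TE libraries of 1 time a shared litter, and their deviations from group means correlated across genes at a mean r of 0.177 at E4 (0.104 to 0.263, 5 pairs) and 0.168 at D10 (-0.0302 to 0.293).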

Additional observations from a re-analysis of the deposited data

Results flagged for a closer look

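The change from E4 to D10 differed between the tissues, ICM minus TE, for 5 of the late sterol enzymes by edgeR's quasi-likelihood test of the difference itself: Lss by log2 3.35 (adjusted p = 0.002), Cyp51 by 4.55 (adjusted p = 0.000914), Msmo1 by 3.24 (adjusted p = 0.000141), Nsdhl by 1.95 (adjusted p = 0.0121) and Sc5d by 4.10 (adjusted p = 0.00379). Their groups and libraries are those given above. Over all genes tested, 3.15% differed in that direction and 1.83% in the other. Nsdhl did not pass on thinning (adjusted p = 0.0825) or without the zona litters (adjusted p = 0.0958). Sc5d was tested only through its D10 ICM counts.

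Dixon's test on each gene and group of 5 libraries, 36 in all, marked 2 single libraries, where chance marks about 1 in 20. Tm7sf2 was at 0 CPM in E4 ICM replicate 5, with a gap of 0.731 of the group's range to the next library, on 8 counts in the whole group. Msmo1 was at 62.2 CPM in D10 TE replicate 3, the highest of that group, with a gap of 0.777 of the range. D10 ICM replicate 3, set aside above for its low levels, was not marked for any of the genes.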

How the results depend on the processing

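Results on the members were recomputed under up to 30 alternatives: other scalings, tests and filters, thinned libraries, only the compared groups, litter as a replicate block, no E4 litters with a zona, and each library left out. For the 21 called member results, 581 of 607 values kept their call, 26 lost it and 0 changed sign. Of 535 values of the 19 results not called, 3 gained a call and 26 changed sign. The cause of these changes was not tested, except that thinning and fewer groups leave fewer members tested. After the data had been seen, the alternatives were extended to 18 results of other genes, for which 522 of 526 values kept their side of the threshold, 4 gained a call (all for Sqle in the ICM) and 0 changed sign. They were also extended to the counts of the other lists, where several counts of 3 or fewer moved by over 1.5 times. Larger counts moved as well. For the mevalonate list, 4 in the ICM ran from 2 to 7. On thinning, its 6 in the TE became 3, its 8 at D10 became 4, and its 7 for the difference of the changes became 4. For the control list, 6 lower at E4 became 2 without the zona litters. Correlations and marker sums were not recomputed.

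The count of members lower at D10 in the TE (5) was 3 with limma voom, 2 on thinning, 3 with only the 2 groups compared, 2 without the zona litters and 3 to 5 with 1 library left out. The count for the difference of the changes (5) was 3 on thinning and 5 to 6 with 1 library left out. With 1 library left out the other counts ran from 3 to 6 in the ICM, 0 to 0 between the tissues at E4 and 6 to 9 at D10. With litter as a replicate block, 0 members were called at E4, 7 at D10 and 5 for the difference of the changes, and the block changed no call of a member. It could not be fitted across time, where litters differ, and the fit of only the 2 groups could not give a difference of changes.

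Signs turned only for members that were not called. For Hsd17b7 across time in the TE, log2 was -0.029 with DESeq2, -0.14 without the zona litters and -0.25 to 0.20 with 1 library left out. With 1 library left out it was -0.089 to 0.884 for Hsd17b7 in the ICM and -0.082 to 0.946 for its difference of the changes. Dhcr7 ran from -0.831 to 0.087 across time in the TE and from -0.65 to 0.27 between the tissues at E4, where limma voom gave 0.22. At E4, Nsdhl was 0.051 and Ebp 0.26 without the zona litters, and with 1 library left out Ebp ran from -0.265 to 0.067 and Sc5d from -0.089 to 0.499. For Tm7sf2 across time in the TE the pooled log2 ratio was 0.088 without the zona litters and -0.23 to 0.38 with 1 library left out. Scalings shifted the median of all genes by at most 0.029.

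Over all genes, thinning to 144276 counts took the numbers called higher and lower from 951 and 692 to 527 and 355 across time in the ICM, from 826 and 687 to 429 and 364 in the TE, from 1094 and 1071 to 555 and 655 at E4, from 898 and 873 to 455 and 452 at D10, and from 219 and 127 to 124 and 74 for the difference of the changes. Without the filter, 1474 were higher at D10 and 352 for the difference. Without the zona litters, 379 were lower in the ICM, and 144 and 54 were called for the difference, and 83 were lower for the difference without D10 ICM replicate 2. Without the filter, Tm7sf2 was called by edgeR in the ICM (log2 2.73 ± 0.59, adjusted p = 0.000144) and at D10 (1.95 ± 0.51, adjusted p = 0.00178). The exact permutation test over libraries did not pass for either (adjusted p = 0.0634), and E4 ICM held 8 counts, so these calls add no support.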

Other observations

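Proteins that serve the late enzymes, and relatives of them, formed a further list of 13, of which 10 were tested. Across time, 3 were higher and 0 lower in the ICM, and 2 were higher and 2 lower in the TE. Over all genes tested, 13.7% were higher and 9.97% lower in the ICM, and 11.9% and 9.89% in the TE, and nothing is read from counts this small beside these shares. On thinning the count in the ICM was 1, as with only the 2 groups compared, and those in the TE were 1 and 0. Between the tissues, 3 were higher in the ICM and 2 lower at E4, and 3 were higher and 0 lower at D10. Over all genes tested, 15.8% were higher and 15.4% lower at E4, and 12.9% and 12.6% at D10. Nothing is read from these counts of the list either. On thinning these counts were all 0. Tmem97, a sterol-binding relative of Ebp, was higher in the ICM at E4 (log2 1.58 ± 0.34, adjusted p = 0.000813) and at D10 (2.48 ± 0.35, adjusted p = 7.6e-06). Cyb5a, the cytochrome b5 that passes electrons to sterol oxidases, rose in the ICM (1.31 ± 0.33, adjusted p = 0.00487) and in the TE (1.66 ± 0.37, adjusted p = 0.00202).

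Por, the reductase that feeds electrons to Cyp51 and squalene epoxidase, fell in the TE (log2 -1.99 ± 0.31, adjusted p = 5.2e-05), from 76.5 ± 7.25 CPM to 18.9 ± 5.48 CPM (SD, n = 5), and the TE groups did not overlap. In the ICM it was at 14.8 ± 5.80 CPM at E4 and 9.45 ± 6.70 CPM at D10 and did not pass (log2 -0.43 ± 0.41, adjusted p = 0.611). At E4 its ICM level was below that of the TE (log2 -2.27 ± 0.34, adjusted p = 1.69e-05), where 0 late enzymes differed between the tissues by edgeR, and was named after its values were seen.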
